A study of Drosophila melanogaster with 9 samples.

Results

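Proteasome subunit genes of Drosophila melanogaster were examined in cultured Kc167 cells. Members were the rows of the deposited expression table whose gene symbol starts with Pros, Rpn or Rpt in the form used for proteasome subunits, and 42 of 14797 rows matched. Of these, 27 encode subunits of the standard proteasome and were expressed in all 9 libraries: 6 of the alpha ring, 6 of the beta ring, 5 Rpt ATPases and 10 Rpn subunits. Another 13 are paralogues, mostly known from the testis, of which 3 were expressed here. The remaining 2 rows are Prosalpha1, listed near 0 under an identifier that the current annotation no longer holds, and Prosap, which encodes a scaffold protein of the Shank family and is no proteasome subunit.

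The proteasome is the large protease of the cytosol and nucleus that degrades proteins tagged with ubiquitin. Its core particle is a barrel of alpha rings, which gate the entrance, and beta rings, which carry the protease sites. A regulatory particle caps the barrel, where Rpt ATPases unfold the substrate and Rpn subunits bind and remove ubiquitin and hold the particle together. In the fly, several subunits have a second gene copy, and many of these copies are expressed mainly in the male germline.

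Kc167 is an established embryonic line with features of hemocytes, the blood cells of the fly. Cells of 3 groups, with 3 libraries each, received 15 µg of dsRNA per 2000000 cells and were collected on day 7. The control group received control dsRNA, and its target is not named in the sources used here. The second group received dsRNA against ph (polyhomeotic, a subunit of Polycomb repressive complex 1) and E(z) (the H3K27 methyltransferase of Polycomb repressive complex 2), and the third group received dsRNA against ph, E(z) and CtBP, a transcriptional corepressor. All groups share the same cell line and dsRNA procedure, and the labels do not say whether the 3 libraries of a group came from separate cultures, and the p values below reflect library-to-library spread that may be technical.

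The values are FPKM, fragment counts scaled to transcript length and library size, which allow levels of different genes to be compared. FPKM summed to 725406 to 908290 per library. The total depth is unknown, and so is the way libraries were scaled. If values were scaled by library totals, the steps between low values put relative depth at 0.91 to 1.07 times that of control replicate 2. E(z) measured 31.2 to 43.4 FPKM in control libraries and 8.29 to 12.1 in libraries treated against it, and CtBP measured 189 to 221 and 41.8 to 65.8 FPKM without and with its dsRNA. The gene ph-p measured 7.15 to 10.3 FPKM in the 6 libraries treated against ph and 18.1 to 18.9 in 2 control libraries, but 4.64 in the library labelled control replicate 1, against its label. The change of ph-p with ph+E(z) RNAi was not called (-0.62 ± 0.46 in log2 units, adjusted p = 0.486 with limma). Without the library labelled control replicate 1, ph-p changed by -1.25 (adjusted p = 0.00617 with limma). With all 3 targets its change was then -1.13 (adjusted p = 0.00421). The authors' deposited table gave ph-p a q-value of 0.00102 for ph+E(z) against control. Its neighbouring copy ph-d measured 1.26, 5.72 and 4.87 FPKM in control and 3.73 to 4.99 in the 6 treated libraries, which overlapped. The library labelled control replicate 1 stood apart in other ways too, with 39.6% of its FPKM in ribosomal protein genes against 26.4% to 30.8% elsewhere. Values of the main results without it are therefore given as well. All 8 hemocyte markers examined were expressed, with summed levels of 621 to 769 FPKM in control, 1117 to 1298 in ph+E(z) and 434 to 502 in ph+E(z)+CtBP libraries. The sums hide differences within control. In the library labelled control replicate 1, Hml measured 8.06 FPKM against 173 and 164 in the other control libraries. There eater measured 0.0991 against 7.60 and 6.93, and Sr-CI 0.768 against 4.76 and 6.12. He (405 against 291 and 262) and Pxn (44.5 against 40.6 and 39.5) were higher there. The markers did not move as 1 set. With ph+E(z) RNAi, libraries lay wholly above control for 7 of 8 and wholly below for 1, against 13.8% and 12.9% of all tested genes. With limma, 2 were called higher (He and nimC1) and 1 lower with ph+E(z) RNAi, namely Cg25C, a collagen chain, at -1.29 ± 0.27 (adjusted p = 0.0345). With all 3 targets 4 were called lower and 0 higher, and on addition of CtBP RNAi 5 were lower and 0 higher. Of all tested genes, 3.92% were called with ph+E(z) RNAi, 9.73% with all 3 targets and 3.72% on addition of CtBP RNAi. Without the library labelled control replicate 1, 3 markers were called higher and 1 lower with ph+E(z) RNAi (6.8% of all genes called). With all 3 targets 7 were then called lower and 0 higher (17.4% of all genes called). In bulk RNA, fewer cells of a type and less RNA per cell cannot be told apart.

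Among the proteasome genes, the 27 standard subunits passed the test in none of the 3 comparisons, and the paralogues Prosbeta2R2 and Rpt3R fell with ph+E(z) RNAi. Prosbeta2R2, a copy of the beta2 protease subunit, went from 17.0 ± 5.26 FPKM in control to 6.56 ± 1.77 in ph+E(z) libraries (mean ± SD, n = 3 each). Rpt3R, a copy of the Rpt3 ATPase, went from 24.4 ± 3.66 to 14.6 ± 0.764 FPKM. Neither was called on addition of CtBP RNAi, with 7.09 ± 0.484 FPKM for Prosbeta2R2 and 14.2 ± 1.30 for Rpt3R.

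**Figure D1:**
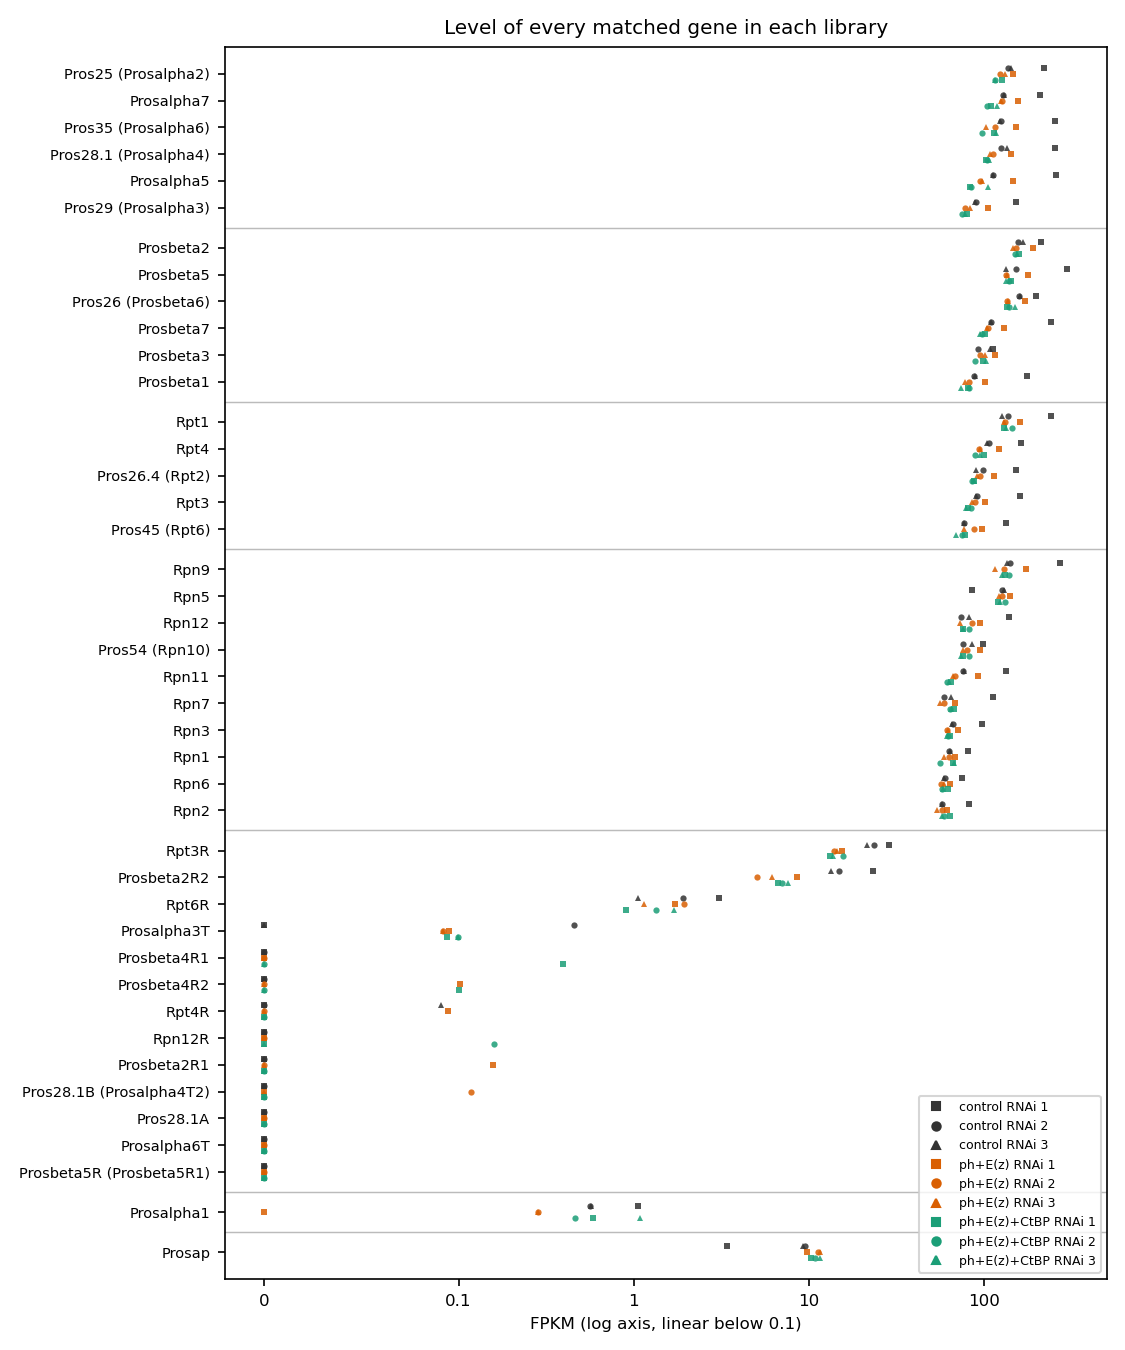
Level of each of the 42 matched genes in each of the 9 libraries, in FPKM on a log axis that is linear below 0.1. Symbols mark the replicate and colours the group, and horizontal lines separate alpha ring, beta ring, Rpt, Rpn, paralogues and the 2 other rows. The 27 standard subunits lie between 53.8 and 295 FPKM, while 10 of 13 paralogues stay below 0.5 FPKM.

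The standard subunits were expressed at similar levels. Over control replicates 2 and 3, their mean levels spanned 57.2 to 160.9 FPKM, a 2.81-fold range. The alpha ring spanned 89.3 to 139 FPKM and the beta ring 87.7 to 160.9 FPKM. The Rpt ATPases spanned 76.7 to 131 FPKM and the Rpn subunits 57.2 to 136 FPKM, so the core particle genes had the higher medians, 125 FPKM for each ring against 93.8 for Rpt and 70.8 for Rpn genes. The order of the 27 genes by group mean was close between groups, with Spearman's rho over genes of 0.95 between control and ph+E(z) and 0.98 between ph+E(z) and ph+E(z)+CtBP. These genes are not independent replicates, and the values are a description.

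Prosbeta2, which carries the trypsin-like protease site, had the highest mean over 9 libraries at 164 FPKM. It measured 209.7, 156 and 166 FPKM in control replicates 1, 2 and 3, then 188, 152 and 146 in ph+E(z) and 158, 149.7 and 153 in ph+E(z)+CtBP libraries. All 3 groups overlapped. Prosbeta5, with the chymotrypsin-like site, followed with a mean of 159 FPKM. Its libraries held 295, 151 and 134 FPKM in control, 177, 132 and 135 in ph+E(z) and 142, 137 and 133 in ph+E(z)+CtBP. Here too the groups overlapped, and the library labelled control replicate 1 was far above the other 8. Lying on 3L at 14999951 to 15001319 (dm6, 3 exons), Prosbeta2 overlaps Reck on the other strand, while Prosbeta5 on 2R at 10819978 to 10821178 (2 exons) overlaps Lsm10.

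At the low end stood Rpn2 and Rpn6. Rpn2 is a large scaffold of the regulatory particle and lies on 3R at 29153524 to 29157255 with 4 exons. It measured 81.9, 57.1 and 57.3 FPKM in control, 60.9, 57.1 and 53.8 in ph+E(z) and 63.7, 58.7 and 57.1 in ph+E(z)+CtBP libraries. Rpn6, a lid subunit that clamps the regulatory particle to the core particle, lies on 2R at 14750166 to 14752910 with 5 exons. Its values were 74.1, 59.5 and 58.9 FPKM in control, 63.7, 56.2 and 59.0 in ph+E(z) and 61.7, 57.4 and 58.2 in ph+E(z)+CtBP. Outside the library labelled control replicate 1, the values of Rpn6 had a coefficient of variation of 4.02%, the lowest of the 27 genes, and Prosalpha5, an alpha ring subunit, had the highest at 19.1%.

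The genes were spread over the genome rather than clustered on 1 arm, with 8 of the 27 on 3R, 7 on 2R, 5 on 3L, 4 on X and 3 on 2L. Their canonical transcripts are short, with a median length of 1215 bases against 1841 over tested genes with a length. Of the 27, 4 genes have a single exon and the others up to 5.

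Within 2 of the 3 groups, replicate 1 stood above the others for most subunits. In the library labelled control replicate 1, 25 of 27 standard subunits (92.6%) were at their highest of 9 libraries, against 33.9% of all 8853 tested genes. The median subunit was 1.70 times its mean in control replicates 2 and 3, with 1.82 for the alpha ring, 1.61 for the beta ring, 1.73 for Rpt and 1.45 for Rpn genes. Over all tested genes the median was 1.01. Prosalpha5 had the largest ratio, 2.30, with 257 FPKM against 113 and 111, followed by Prosbeta7, a beta ring subunit without protease activity, at 2.199.

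Short transcripts as a class were higher in that library. Tested genes with transcripts of 1001 to 1500 bases had a median log2 difference of 0.33 from the other control libraries, and those over 3000 bases -0.50. The standard subunits had higher medians than genes of their own length class. These were 0.83 over the 10 subunits of 1001 to 1500 bases and 0.43 over the 2 above 3000 bases. The part of transcript length in the high subunit values of that library was not tested. With a correction for transcript length, chosen after seeing the data, the median change of the 27 against control was -0.18 with ph+E(z) RNAi and -0.27 with all 3 targets, against -0.21 and -0.35 without it.

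Rpn5, a lid subunit, went the other way. It lies on 3R at 5789493 to 5791569 with 4 exons and measured 84.5 FPKM in the library labelled control replicate 1, the lowest of 9, and 127 and 129 in the other control libraries. In ph+E(z) libraries Rpn5 measured 140.4, 126 and 121 FPKM, and in ph+E(z)+CtBP libraries 119.9, 131 and 123. The 8 other libraries overlapped fully, with a coefficient of variation of 5.11%. Rpn5 was the standard subunit with the highest log2 change in both comparisons with control, 0.21 ± 0.17 with ph+E(z) RNAi (adjusted p = 0.504) and 0.16 ± 0.17 with all 3 targets (adjusted p = 0.536). They became 0.01 and -0.04 without the library labelled control replicate 1.

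A second library, ph+E(z) replicate 1, held the highest value of the remaining 8 for 26 of 27 subunits. Rpn2 was the exception. The share over all tested genes was not computed for this count. Prosalpha7, an alpha ring subunit, shows the pattern, with 207, 127 and 129 FPKM in control, 156, 125 and 124 in ph+E(z) and 109, 103 and 117 in ph+E(z)+CtBP libraries. Without the library labelled control replicate 1, deviations from the group means in 8 libraries had a median Pearson's r of 0.78 over 351 gene pairs. All 351 pairs were above 0, from 0.14 to 0.99. With all 9 libraries the median was 0.94, with 325 of 351 pairs above 0 and a lowest r of -0.83. The weight of ph+E(z) replicate 1 in these values was not computed. Those points share libraries, depth and scaling, and the values are a description. Such correlations were not computed for other genes, so they do not set the subunits apart from them.

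**Figure D2:**
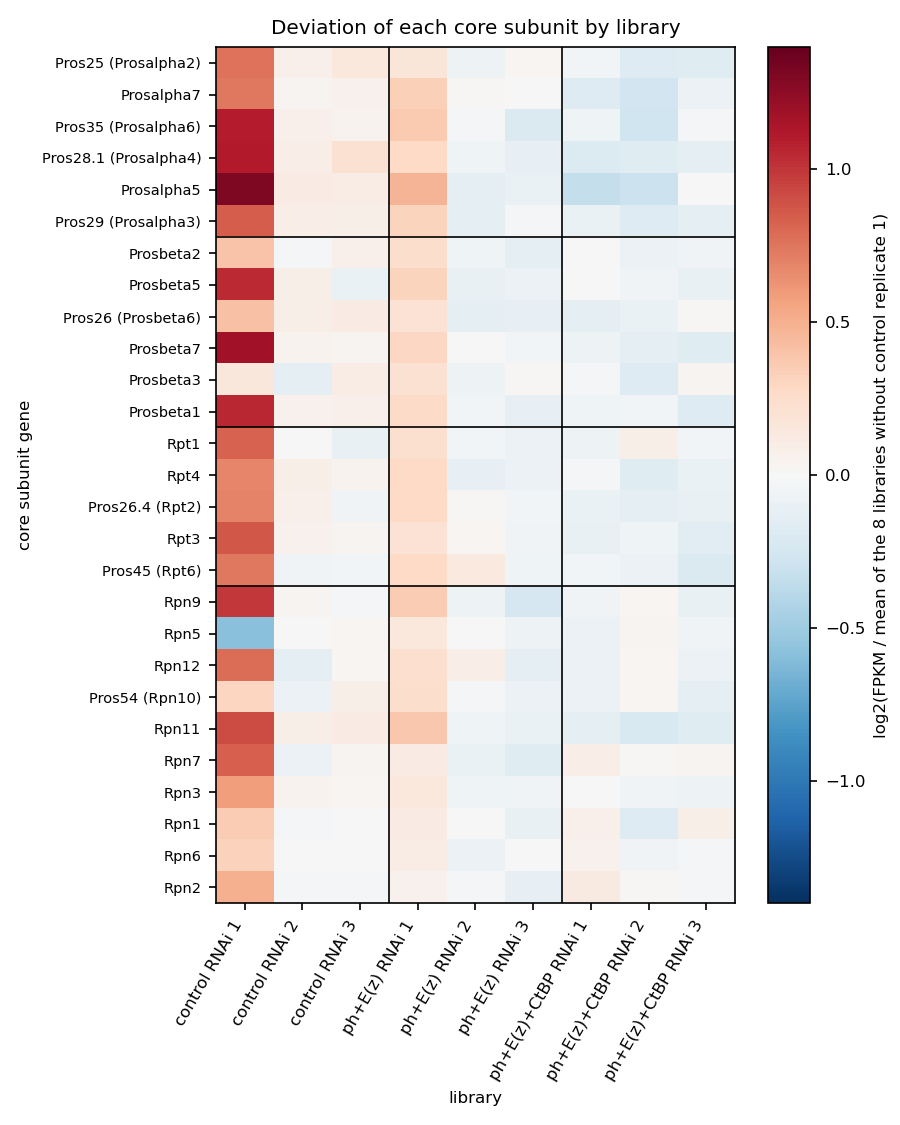
Log2 ratio of each standard subunit in each library to its mean over the 8 libraries without control replicate 1. Rows are the 27 genes, with black lines between alpha ring, beta ring, Rpt and Rpn genes, and columns are the 9 libraries, with lines between groups. Control replicate 1 is the highest of 9 for 25 of 27 genes and the lowest for Rpn5, and ph+E(z) replicate 1 is the highest of the other 8 libraries for 26.

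As a share of all FPKM, the 27 subunits took 0.504%, 0.376% and 0.373% in control, 0.414%, 0.339% and 0.331% in ph+E(z) and 0.357%, 0.343% and 0.342% in ph+E(z)+CtBP libraries. The control and ph+E(z) groups overlapped, and so did ph+E(z) and ph+E(z)+CtBP. All 3 ph+E(z)+CtBP libraries lay below all 3 control libraries. With ribosomal protein genes left out of the total, the share was 0.538% to 0.834% in control, 0.471% to 0.595% in ph+E(z) and 0.466% to 0.486% in ph+E(z)+CtBP libraries.

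**Figure D3:**
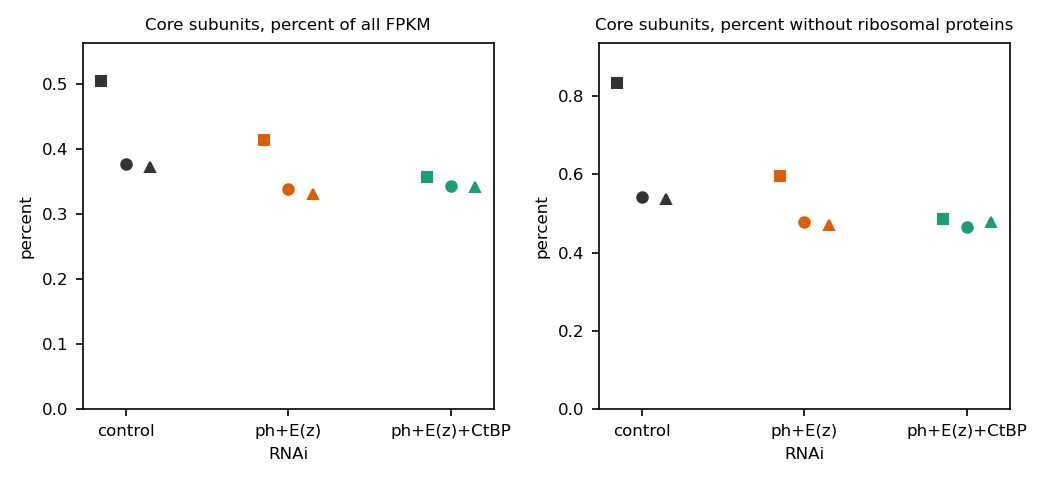
Summed FPKM of the 27 standard subunits as a percent of all FPKM (left) and of FPKM without ribosomal protein genes (right), 1 point per library, squares, circles and triangles for replicates 1, 2 and 3. Replicate 1 of control and of ph+E(z) lie above the other libraries, which fall between 0.331% and 0.376% in the left panel.

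The comparison of ph+E(z) with control RNAi addresses the response to dsRNA against a member of each Polycomb complex. Of the 32 proteasome rows that passed the expression filter, 2 were called at an adjusted p under 0.05 with limma, both lower (Prosbeta2R2 and Rpt3R, described below), and 0 higher, against 3.92% of all 8853 tested genes (1.34% lower and 2.58% higher). None of the 27 standard subunits was called, and 0 had an unadjusted p under 0.05, against 17.3% of all tested genes. The authors' deposited table also gave 0 of the 27 a q-value under 0.05. Their groups overlapped for all 27, where 26.7% of all genes had groups apart (12.9% lower and 13.8% higher). Log2 changes of the 27 ran from -0.44 to 0.21 with a median of -0.21, with 25 of 27 below 0, against a median of -0.0011 and 50.2% below 0 over all tested genes. Without the library labelled control replicate 1, the median was 0.0074 and 12 of 27 were below 0, with changes from -0.12 to 0.17.

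The lowest change among the standard subunits in that comparison was that of Pros28.1 (Prosalpha4), an alpha ring subunit. Pros28.1 measured 252, 125 and 135 FPKM in control, 141, 111 and 107 in ph+E(z) and 102, 103 and 106 in ph+E(z)+CtBP libraries. Control and ph+E(z) overlapped, and the change was -0.44 ± 0.25 (adjusted p = 0.397). In the alpha ring 6 of 6, in the beta ring 5 of 6, in the Rpt group 5 of 5 and in the Rpn group 9 of 10 changes were below 0, with medians of -0.32, -0.26, -0.21 and -0.17. Without the library labelled control replicate 1, the medians of the 4 groups were -0.03, 0.02, 0.08 and 0.0077.

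The second comparison asked what CtBP RNAi adds to ph+E(z) RNAi. None of the 32 rows was called with limma in either direction, against 3.72% of all tested genes (1.94% higher and 1.77% lower), and 1 had an unadjusted p under 0.05 (Prosalpha1), against 14.5% of all genes. None of the 27 standard subunits had an unadjusted p under 0.05, and the authors' deposited table gave 0 of them a q-value under 0.05. The median log2 change of the 27 was -0.11, with 25 below 0, against 51.3% of all genes. The ph+E(z)+CtBP libraries lay wholly below the ph+E(z) libraries for 6 of 27 and wholly above for 0 (16% and 15.1% of all genes, 31.2% in all), namely Pros28.1, Prosalpha7, Prosbeta7, Pros26.4 (Rpt2), Rpt3 and Rpn11, the subunit that removes ubiquitin chains. The median rested on 1 library: without ph+E(z) replicate 1 it was -0.0101, with 15 of 27 below 0.

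Prosalpha5 and Prosalpha7 had the lowest changes of that comparison. Prosalpha5 lies on 2R at 17412767 to 17413769 with 3 exons and measured 145, 94.7 and 97.1 FPKM in ph+E(z) and 82.5, 84.3 and 104 in ph+E(z)+CtBP libraries. The groups overlapped, with a change of -0.29 ± 0.33 (adjusted p = 0.803). For Prosalpha7, on 2R at 9846636 to 9847836 with 3 exons, the libraries given above did not overlap, and the change was -0.29 ± 0.20 (adjusted p = 0.607). Without ph+E(z) replicate 1 the changes were -0.09 for Prosalpha5 and -0.18 for Prosalpha7. Both miss the threshold with all libraries, which does not show that the levels were equal.

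The third comparison set all 3 targets against control and shares its libraries with the first 2. Of the 32 rows, 2 were called lower with limma and 0 higher, against 4.15% lower and 5.58% higher among all tested genes (9.73% in all). The 2 were again Prosbeta2R2 and Rpt3R. None of the 27 standard subunits was called, and 4 had an unadjusted p under 0.05 (27.4% of all genes), 3 of them in the alpha ring (Pros25, Pros28.1 and Prosalpha7) and the fourth Rpn11. The median log2 change of the 27 was -0.35, with 26 below 0, against 50.3% of all genes. For 14 of 27 the ph+E(z)+CtBP libraries lay wholly below control and for 0 wholly above, against 17.9% and 18.4% of all genes (36.3% in all). The median without the library labelled control replicate 1 was -0.08, with 23 below 0.

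The alpha ring lay lowest in the third comparison. All 6 alpha ring genes had ph+E(z)+CtBP libraries wholly below control libraries, against 17.9% of all tested genes. None of the 6 was called (smallest adjusted p = 0.146 with limma). The median change was -0.50 in the alpha ring, against -0.34 in the beta ring, -0.35 in the Rpt and -0.19 in the Rpn group. Without the library labelled control replicate 1, the 6 alpha ring changes ran from -0.32 to -0.18 with a median of -0.23, and the smallest adjusted p was 0.0993, for Pros28.1. The other medians were then -0.11 for the beta ring, -0.12 for Rpt and -0.02 for Rpn genes. None of these differences between subunit groups was tested.

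**Figure D4:**
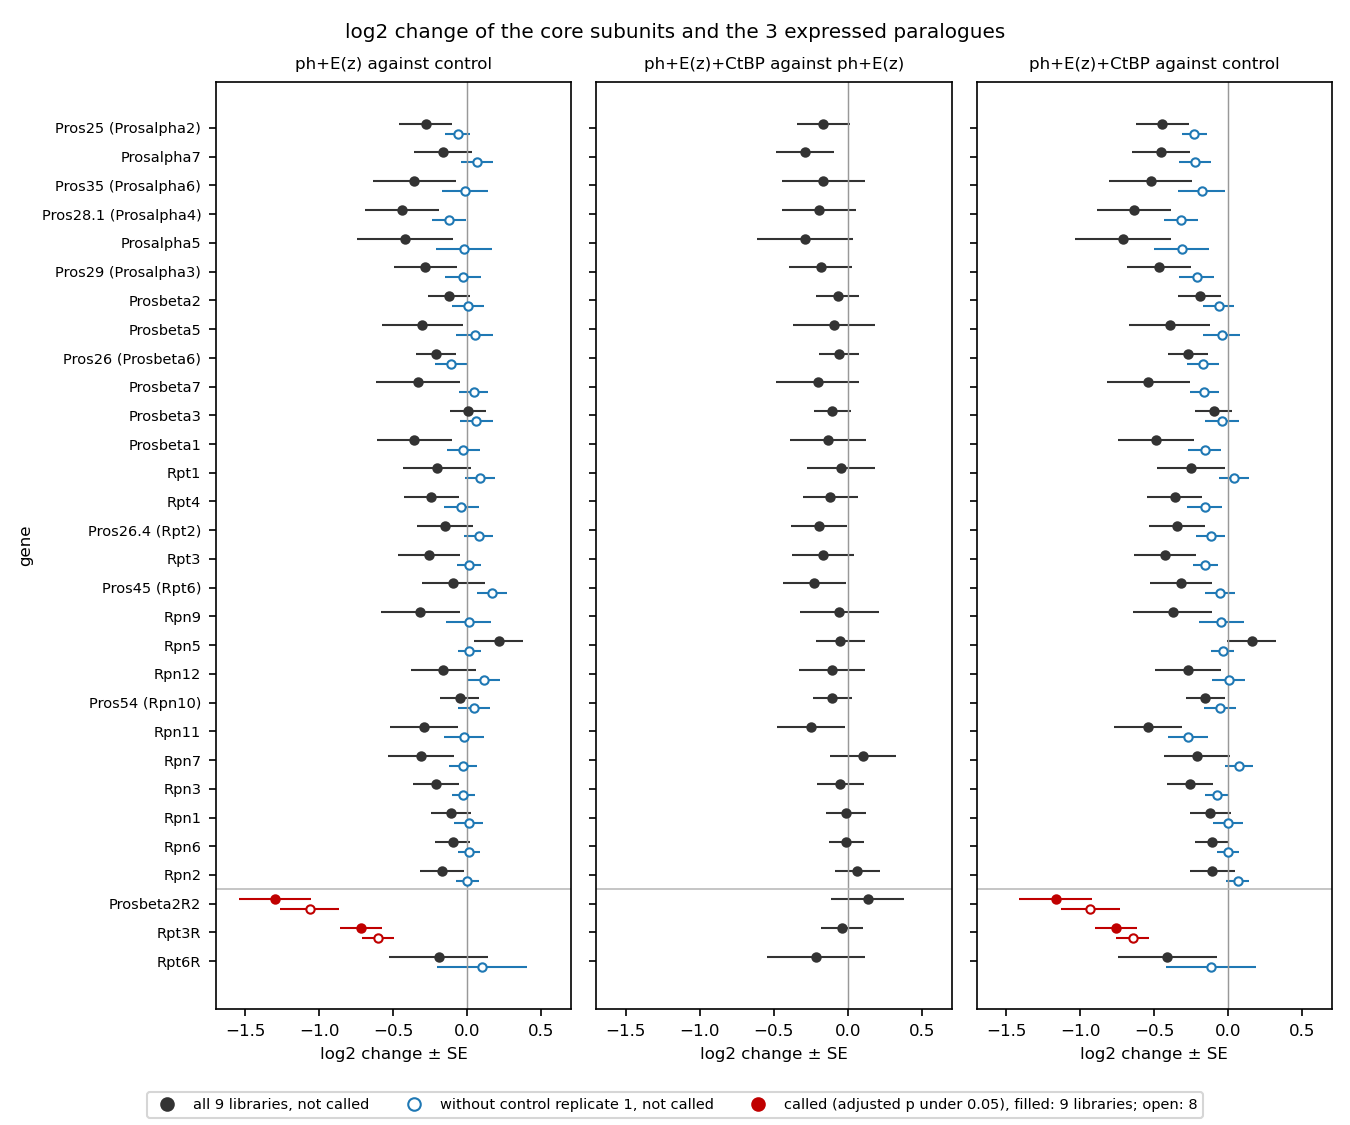
Log2 change ± SE of the 27 standard subunits and the 3 expressed paralogues in the 3 comparisons, with all 9 libraries (filled) and without control replicate 1 (open, for the comparisons with control). Red marks an adjusted p under 0.05. Prosbeta2R2 and Rpt3R are red in both comparisons with control, at -1.30 and -0.72 with ph+E(z) RNAi, and no standard subunit is.

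Prosbeta2R2 is the copy of Prosbeta2 that these cells expressed, and it lies on 3R at 5217751 to 5219528 on the minus strand with 3 exons and no overlapping gene in dm6. It measured 23.01, 14.8 and 13.2 FPKM in control, 8.50, 5.05 and 6.11 in ph+E(z) and 6.68, 6.97 and 7.62 in ph+E(z)+CtBP libraries. All 6 treated libraries lay below all 3 control libraries, and the treated groups overlapped. In log2 units, Prosbeta2R2 fell by 1.30 ± 0.25 (adjusted p = 0.0254) in ph+E(z) libraries and fell by 1.17 ± 0.25 with all 3 targets (adjusted p = 0.0223). Between the treated groups it differed by 0.13 ± 0.25 (adjusted p = 0.916). The authors' deposited table gave Prosbeta2R2 a q-value of 0.00102 for ph+E(z) against control and 0.924 for the addition of CtBP RNAi.

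Rpt3R lies on 3R at 9754735 to 9756510 on the minus strand with 2 exons. It measured 28.5, 23.5 and 21.3 FPKM in control, 15.4, 13.9 and 14.4 in ph+E(z) and 13.2, 15.6 and 13.6 in ph+E(z)+CtBP libraries. Again no treated library reached the lowest control library, and the treated groups overlapped. In the same units, Rpt3R fell by 0.72 ± 0.14 (adjusted p = 0.0287) in ph+E(z) libraries and fell by 0.76 ± 0.14 with all 3 targets (adjusted p = 0.0137). Between the treated groups it differed by -0.04 ± 0.14 (adjusted p = 0.967). The q-values for Rpt3R in the authors' deposited table were 0.00763 and 0.968.

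Both calls held without the library labelled control replicate 1, where Prosbeta2R2 changed by -1.07 (adjusted p = 0.0204) and -0.93 (0.0187) and Rpt3R by -0.61 (0.0181) and -0.65 (0.00733). Leaving out other libraries ended calls by adjusted p while the changes with ph+E(z) RNAi stayed between -1.49 and -1.07 for Prosbeta2R2 and between -0.81 and -0.61 for Rpt3R. For ph+E(z) RNAi, the adjusted p of Prosbeta2R2 and of Rpt3R was 0.0617 and 0.0789 when control replicate 2 was left out. Leaving out ph+E(z) replicate 2 gave 0.113 and 0.139, ph+E(z) replicate 3 gave 0.111 and 0.125, and ph+E(z)+CtBP replicate 1 gave 0.0514 and 0.0537. Rpt3R also missed the threshold without ph+E(z) replicate 1 (adjusted p = 0.0587) and Prosbeta2R2 without ph+E(z)+CtBP replicate 2 (0.0506). With all 3 targets, both missed it without ph+E(z)+CtBP replicate 1 (0.0934 and 0.0698), and Prosbeta2R2 without ph+E(z)+CtBP replicate 2 (0.0872).

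The canonical partners of both paralogues were called in no comparison. Prosbeta2 differed by -0.13 ± 0.14 with ph+E(z) RNAi (adjusted p = 0.638) and Rpt3, which unfolds substrates in the ATPase ring, by -0.26 ± 0.21 (adjusted p = 0.515). With the library labelled control replicate 1 left out, the differences were 0.0020 for Prosbeta2 and 0.01 for Rpt3. Prosbeta2R2 stood at 10.97%, 9.47% and 7.97% of the Prosbeta2 level in control, 4.52%, 3.32% and 4.19% in ph+E(z) and 4.22%, 4.65% and 4.99% in ph+E(z)+CtBP libraries. Control libraries were above all treated ones. The log2 ratio differed by -1.24 with ph+E(z) RNAi and -1.03 with all 3 targets, each with p = 0.1 in a two-sided exact permutation test, the smallest that 3 against 3 libraries can give. The addition of CtBP RNAi moved it by 0.21 (exact permutation p = 0.2).

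Rpt3R stood at 17.9%, 25.8% and 23.9% of the Rpt3 level in control, 15.3%, 15.7% and 17.1% in ph+E(z) and 16.3%, 18.7% and 17.4% in ph+E(z)+CtBP libraries. The control libraries lay above the ph+E(z) libraries and overlapped the ph+E(z)+CtBP libraries. The difference of the log2 ratio was -0.48 with ph+E(z) RNAi (exact permutation p = 0.1) and -0.35 with all 3 targets (exact permutation p = 0.2).

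**Figure D5:**
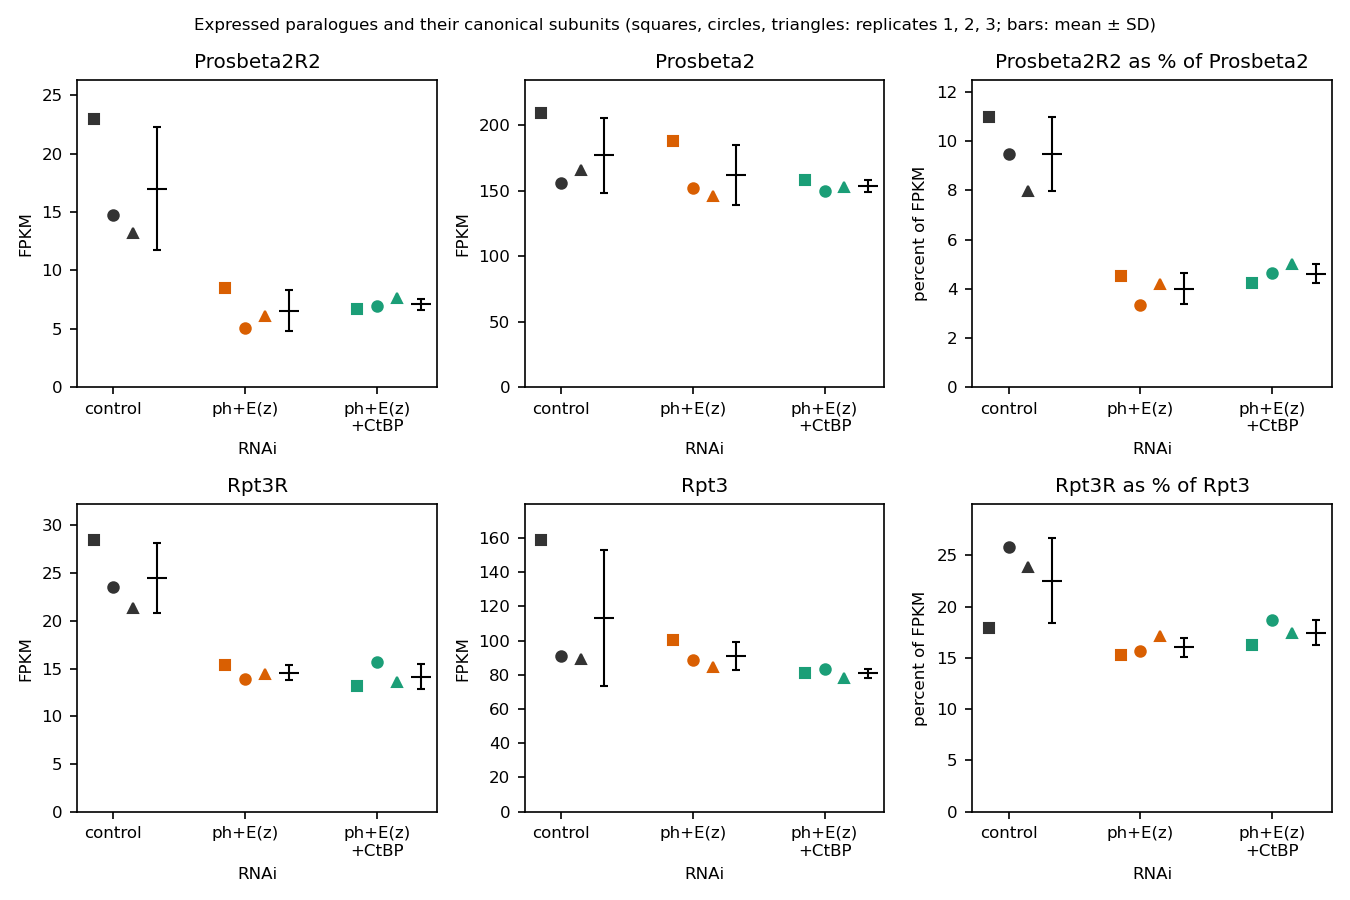
Levels of Prosbeta2R2 and Rpt3R (left), of their canonical subunits Prosbeta2 and Rpt3 (middle), in FPKM, and the paralogue as a percent of the canonical subunit (right). Points are libraries, and the horizontal bar with whiskers is the mean ± SD of 3 libraries. Prosbeta2R2 falls from 13.2 FPKM or more in control libraries to 8.50 or less in treated ones, while Prosbeta2 overlaps between groups.

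Rpt3R overlaps Alg12 (CG8412 in the table, a mannosyltransferase of glycan assembly) on the opposite strand, and since none of the sources used here states strandedness, reads of the pair may not be separable. Alg12 measured 27.0, 27.6 and 26.8 FPKM in control, 21.8, 21.7 and 22.7 in ph+E(z) and 26.6, 24.5 and 22.7 in ph+E(z)+CtBP libraries. All 6 treated libraries of Alg12 lay below all 3 control libraries, but neither its change of -0.29 ± 0.10 with ph+E(z) RNAi (adjusted p = 0.191) nor that of -0.14 with all 3 targets (adjusted p = 0.386) was called. Tti1, 49 bases from Rpt3R, measured 13.7 to 16.7 FPKM in control, 17.3 to 19.4 in ph+E(z) and 16.3 to 18.7 in ph+E(z)+CtBP libraries, so its ph+E(z) libraries lay above control while the ph+E(z)+CtBP libraries overlapped it. CG1116, 129 bases from Prosbeta2R2, measured 36.6, 22.3 and 22.5 FPKM in control and 17.4 to 23.2 in treated libraries. CG1116 overlapped between control and each treated group, and cno, 295 bases from Prosbeta2R2, did so too with 13.7, 59.7 and 57.0 FPKM against 46.0 to 83.0.

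The third expressed paralogue, Rpt6R, is a copy of Pros45 (Rpt6) on 3R at 30582198 to 30583697. It measured 3.07, 1.90 and 1.05 FPKM in control, 1.72, 1.93 and 1.14 in ph+E(z) and 0.897, 1.33 and 1.70 in ph+E(z)+CtBP libraries. All groups overlapped, and Rpt6R was called in no comparison (adjusted p = 0.755, 0.887 and 0.43). It reached at most 2.49% of the Pros45 level in any library.

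The other 10 paralogues did not pass the filter of 0.5 FPKM in at least 3 libraries and were not tested. Pros28.1A, Prosalpha6T and Prosbeta5R were listed at 0 in all 9 libraries. Prosalpha3T was above 0 in 7 libraries, at 0.454 FPKM in control replicate 2 and 0.0921 to 0.0999 in the 6 treated libraries. Prosbeta4R2 and Rpt4R were above 0 in 2 libraries each. Pros28.1B, Prosbeta2R1, Prosbeta4R1 and Rpn12R were above 0 in 1 library each, with the highest value, 0.394 FPKM, for Prosbeta4R1. No level of these 10 exceeded 0.507% of the canonical subunit.

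Markers of the germline and testis were looked at beside the paralogues. Of 12 such genes, 7 passed the filter, and can and dj were listed at 0 in every library. With limma 0 were called in any comparison, against 3.92%, 3.72% and 9.73% of all tested genes. The only markers with a q-value under 0.05 in the authors' deposited table were bol and bam. For bol it was 0.00102 for ph+E(z) against control, and for bam 0.0129 on addition of CtBP RNAi. The summed level of the 12 genes was 42.0 to 61.2 FPKM in control, 66.9 to 79.8 in ph+E(z) and 64.3 to 77.9 in ph+E(z)+CtBP libraries. Much of the difference lay in 1 gene, bol, with 2.04, 21.2 and 19.6 FPKM in control, 23.8 to 35.7 in ph+E(z) and 28.9 to 45.6 in ph+E(z)+CtBP libraries. Of the 7 tested markers, 2 had changes below 0 with ph+E(z) RNAi (median 0.28) and 5 with all 3 targets (median -0.12). The hemocyte markers given above had calls in both directions with ph+E(z) RNAi and only lower calls with all 3 targets. The part of a change in cell state in the fall of the 2 paralogues was not tested.

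Prosalpha1, an alpha ring subunit, is listed under an identifier that the current annotation lacks. It measured 1.05, 0.563 and 0.569 FPKM in control, 0, 0.285 and 0.285 in ph+E(z) and 0.583, 0.464 and 1.08 in ph+E(z)+CtBP libraries. The ph+E(z) libraries lay below both other groups, with changes of -0.84 ± 0.30 against control (adjusted p = 0.191) and 0.81 ± 0.30 on addition of CtBP RNAi (adjusted p = 0.239), neither of them called. The values rest on few fragments, a near-identical copy of the gene exists, and reads may be split between copies, so the level of this subunit is uncertain.

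Prosap measured 3.41, 9.45 and 9.18 FPKM in control, 9.71, 11.2 and 11.5 in ph+E(z) and 10.3, 10.8 and 11.5 in ph+E(z)+CtBP libraries. The treated libraries lay above control, but the changes of 0.64 ± 0.33 (adjusted p = 0.354) and 0.65 ± 0.33 (adjusted p = 0.239) were not called, and leaving out the library labelled control replicate 1 they were 0.20 and 0.21. Prosap has 12 exons and a transcript of 7979 bases, longer than that of any standard subunit, and was low in that library, where most of the subunits were high.

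Standard subunits with other symbols were not matched and are given for comparison. Mov34 (Rpn8), Tbp-1 (Rpt5), CG17331 (Prosbeta4) and CG13349 (Rpn13) were all expressed. Of these 4, 0 were called in any comparison, against 3.92%, 3.72% and 9.73% of all tested genes. CG17331 measured 221, 137 and 145 FPKM in control, 157, 121 and 125 in ph+E(z) and 119, 115 and 136 in ph+E(z)+CtBP libraries. The 4 genes had median log2 changes of -0.20, -0.08 and -0.28 in the 3 comparisons, near those of the matched subunits, and the medians against control were -0.02 and -0.09 without the library labelled control replicate 1.

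Genes that work with the proteasome were examined in 6 lists, and 0 were called in any of the 3 comparisons, against 3.92%, 3.72% and 9.73% of all tested genes. The lists held 5 genes of ubiquitin supply and its E1 enzyme, 3 of assembly, activation and inhibition, 6 shuttles and deubiquitinases, 4 of the TER94 segregase that extracts substrates, 4 regulators of proteasome transcription, and 9 of the COP9 signalosome, a complex related to the lid, of which 8 passed the filter. REG, the activator that caps the core particle in place of the regulatory particle, measured 333, 185 and 180 FPKM in control, 186, 145 and 157 in ph+E(z) and 145, 149 and 165 in ph+E(z)+CtBP libraries. Its change with all 3 targets was -0.54 ± 0.23 (adjusted p = 0.172), and -0.25 without the library labelled control replicate 1. Pomp, the chaperone of core particle assembly, was also highest in the library labelled control replicate 1, at 579 FPKM against 270 to 356 in the other 8.

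Among the regulators, cnc, the fly homologue of the Nrf factors that switch on proteasome genes, measured 47.2 FPKM in the library labelled control replicate 1 and 177 to 205 in the other 8. Rad23, which shuttles tagged proteins to the proteasome, showed the same order, with 60.3 FPKM there and 118 to 138 elsewhere. Both were low in the library where the subunits were high. Keap1, the inhibitor of cnc, measured 13.5, 21.2 and 22.7 FPKM in control, 14.9, 11.6 and 11.6 in ph+E(z) and 23.4, 23.0 and 26.1 in ph+E(z)+CtBP libraries. Its ph+E(z)+CtBP libraries lay above both other groups. The change of Keap1 on addition of CtBP RNAi, 0.91 ± 0.20, just missed the threshold (adjusted p = 0.0509), and that with ph+E(z) RNAi was -0.55 ± 0.20 (adjusted p = 0.214). With the library labelled control replicate 1 left out, Keap1 fell by 0.77 with ph+E(z) RNAi (adjusted p = 0.0138) and PNGase, a deglycosylase that acts in processing of the cnc homologue in worms, rose by 0.35 with all 3 targets (adjusted p = 0.0142). In those fits 6.8% and 17.4% of all tested genes were called. In the authors' deposited table the q-values for Keap1 were 0.0394 and 0.00102.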

How the data were processed

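RNA of 9 libraries was compared in 3 groups of 3. FPKM per gene and library are as the authors deposited them, and so are their q-values for 2 comparisons. The tools used were TopHat2 2.1.0, Bowtie2 2.2.6, Cufflinks, Cuffdiff and R 3.2.3, with build dm6, per the submitters' processing notes. No source used here gives strandedness, read numbers or how libraries were scaled, so total depth is unknown and precision is judged from replicate spread alone. Coordinates come from the Ensembl annotation of dm6 by FlyBase identifier, which held 40 of 42 matched genes, since only 3 of those 40 had a deposited start within 1 base of it.

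Tests used limma 3.58.1 (R 4.3.3) and values of log2(FPKM + 0.5), with a mean-variance trend, 1 fit of all 3 groups and Benjamini-Hochberg adjustment over all 8853 genes with at least 0.5 FPKM in at least 3 libraries (threshold 0.05). On this scale changes of low genes are understated. Log2 changes are given ± SE and levels ± SD. The code was tested on simulated data in which no library stood apart. That was a check of the code and not of the calls above. Ratios of paralogue to canonical subunit were compared with two-sided exact permutation tests.

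Values in every library are given for called members, for the members with the 2 highest and 2 lowest changes in each comparison, for the 2 subunits with the highest and the 2 with the lowest level and for the 2 highest paralogues. Pros28.1, Rpt6R, CG17331, REG, Keap1, PNGase, bol, Cg25C and the genes near the paralogues were added after their values were seen. The members and lists were chosen with earlier results of these data known. Alternatives covered the pseudocount, filter, scaling, trend, moderation, library weights, fits of only 2 groups, a replicate block, leaving out each library and, added after seeing the data, a correction for transcript length.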

Additional observations from a re-analysis of the deposited data

How the results depend on the processing

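Prosbeta2R2 and Rpt3R stayed below control in both comparisons with control under every alternative. The pseudocount, filter, scaling, trend, robust moderation and length correction changed no call of either. In fits of the 2 compared groups alone, 0 members were called lower with ph+E(z) RNAi (adjusted p = 0.0847 for Prosbeta2R2 and 0.0766 for Rpt3R, 210 genes called in all) and 0 with all 3 targets (0.0515 and 0.0601, 378 genes), and the addition of CtBP RNAi gave 793 genes. Array weights called 2924, 2396 and 3278 genes in the 3 comparisons, with 4, 1 and 8 members lower and, with ph+E(z) RNAi, 1 higher. These were the only alternatives that called standard subunits, up to 6 of 27, and the cause was not tested. Under array weights the share of higher genes among those called with ph+E(z) RNAi was 50.9% against 65.7%, and the median change of members with all 3 targets was -0.099. Rpn5 then turned to -0.0229 and -0.0378 against control, and with equal FPKM totals Rpt3R turned to 0.0292 between the treated groups. With ribosomal protein genes left out, the share of standard subunits averaged 0.638%, 0.514% and 0.477% in control, ph+E(z) and ph+E(z)+CtBP, by construction of the total.

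Leaving out 1 library at a time gave 108 to 602 called genes with ph+E(z) RNAi, 89 to 1191 on addition of CtBP RNAi and 298 to 1541 with all 3 targets. Members called lower ranged from 0 to 2, 0 to 0 and 0 to 2. The median change of tested members ranged from -0.3765 to 0.0047, -0.1717 to -0.0077 and -0.4834 to -0.0979. Prosbeta2R2 between the treated groups ranged from -0.0256 to 0.3229, Rpt3R from -0.1131 to 0.0055, and Rpn5 with all 3 targets from -0.0392 to 0.2658. The core share ranged from 0.374% to 0.440% in control, 0.335% to 0.376% in ph+E(z) and 0.343% to 0.350% in ph+E(z)+CtBP.

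Deviations of libraries with the same replicate number correlated from -0.137 to 0.197, and those with different numbers from -0.163 to 0.102. Same-number values were 0.197, 0.046 and 0.140 between control and ph+E(z) libraries, and negative between the other groups. The labels do not state a pairing, so the numbers were not taken to pair libraries. These values do not show that pairing was absent. With the replicate block, 212, 241 and 593 genes were called, with 1, 0 and 2 members lower, since Rpt3R with ph+E(z) RNAi had an adjusted p of 0.0684.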
